A study of Caenorhabditis elegans with 92 samples.

Results

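On the X chromosome of wild-type Caenorhabditis elegans embryos, 690 of 1605 condensin I-IDC binding sites overlapped a peak of the SMC subunit MIX-1 and no condensin II site. These 690 sites, called MIX-1 sites here, were chosen by measured peaks. Stretches of the X covered by peaks of 2 or more of CAPG-1, DPY-26 and DPY-28 were joined where adjacent. Those sharing at least 1 base with a MIX-1 peak were kept, unless they shared a base with a condensin II site, defined in the same way from CAPG-2, HCP-6 and KLE-2. The same steps gave 1653 condensin I-IDC sites over all chromosomes. With only the higher-scoring 50% of every list the number was 444 instead of 690. Of the other X sites, 725 had neither MIX-1 nor condensin II and 190 overlapped condensin II. Counts, shares, widths and scores at condensin II sites below are of these 190 condensin I-IDC sites. Distances to a condensin II site, and the smallest overlaps with one, refer to the condensin II stretches themselves, 202 on the X.

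Condensins are ring-shaped complexes that shape chromosomes, and each is built from a pair of SMC ATPases with a set of non-SMC subunits. In C. elegans, condensin I and condensin II share MIX-1 and SMC-4 and differ in their non-SMC subunits, which are DPY-26, DPY-28 and CAPG-1 in condensin I and KLE-2, HCP-6 and CAPG-2 in condensin II. Another complex, condensin IDC, has the subunits of condensin I but DPY-27 in place of SMC-4. It is recruited to both X chromosomes of hermaphrodites by SDC-2 and lowers X transcription, the process called dosage compensation. A site of CAPG-1, DPY-26 and DPY-28 can therefore hold condensin I, condensin IDC or both, and MIX-1 belongs to every one of these complexes.

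Wild-type samples were strain N2, as mixed stage embryos fixed for 30 min in 2% formaldehyde or as L3 larvae from synchronous liquid culture. The mutant was strain TY1072, which carries her-1(e1520) on chromosome V and sdc-2(y74) on the X, an sdc-2 null that is genetically male and tetraploid (AAAA XX), sampled as embryos. Chromatin was from whole animals, so cell types cannot be told apart. Antibodies were rabbit polyclonals, with 5 embryo replicates for CAPG-2, DPY-26 and MIX-1, 4 for DPY-27, DPY-28 and HCP-6, 3 for CAPG-1, IgG, KLE-2, SCC-2 and SMC-4, and 2 for AMA-1. Larval KLE-2 had 4 replicates, mutant SCC-2 had 3, and mutant DPY-26, KLE-2 and HCP-6 had 2 each.

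Each protein and condition had 1 list of peaks, called on pooled replicates. Differences between these lists therefore have no replicate error, and the lists allow no test over samples. Shares of sites are given with exact 95% binomial intervals (Clopper-Pearson), which cover counting error only and treat sites as independent. The peak score is the peak caller's value, which is higher for a smaller p-value and is capped at 3100. It depends on the depth of a list, which is unknown here, so scores were compared between sites within 1 list, and scores of different lists stand side by side only to describe a named site. The lists ranged from 23 peaks for IgG to 2463 for AMA-1. In the mutant they held only 45 for HCP-6, 88 for DPY-26, 201 for KLE-2 and 315 for SCC-2, against 1677, 2420, 1474 and 1167 in wild-type embryos.

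The MIX-1 sites covered 1.61 Mb of the X. They were 716 to 13916 bp wide with a median of 1790 bp, and 50 were wider than 5 kb. Sites without MIX-1 were narrower (median 1481 bp), and condensin I-IDC sites that overlapped condensin II were wider (median 2795 bp). A wider site has more room to meet a peak of any other protein, so shares are also given within classes of width below.

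The subunits that chose the sites are given as a description. DPY-26, a kleisin, had a peak at 658 of the 690 MIX-1 sites, against 95.3% of all 1605 X sites. The HEAT-repeat subunits DPY-28 and CAPG-1 had peaks at 627 and 664, against 83.2% and 84.8% of all X sites. All 3 peaks met on the same bases in 569 MIX-1 sites (82.5%), in 265 sites without MIX-1 (36.6%) and in 182 condensin II sites (95.8%). In subunit make-up as in width, the MIX-1 sites lay between the other kinds of site. Scores followed the same order. The DPY-26 score was at its cap in 51.1% of MIX-1 sites with a peak, in 8.88% of sites without MIX-1 and in 86.5% of condensin II sites.

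MIX-1, whose list took part in the choice and is given as a description, lay at the middle of its sites. The X held 945 MIX-1 peaks, of which 695 met a MIX-1 site, 197 met a condensin II site and 55 met no condensin I-IDC site. Of the 690 sites, 678 had 1 MIX-1 peak and 12 had 2. The median site had 90.02% of its bases under MIX-1, and the median distance between the centres of site and peak was 66 bp. A total of 58 sites were under MIX-1 for less than 50% of their length, and 14 sites shared a MIX-1 peak with a neighbour. The score of MIX-1 was lower here than at condensin II sites. Its median was 741 at MIX-1 sites, where 5.51% of peaks were at the cap, and 3100 at condensin II sites, where 52.7% were.

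Single sites at the ends of the score range are given as examples. Positions are in genome build WS220. A site at chrX:1319105-1320806 (1702 bp) had DPY-26, DPY-28, CAPG-1, DPY-27 and MIX-1 all at the cap of 3100. It also carried an SMC-4 peak of score 396 and a larval KLE-2 peak of 677. A site at chrX:1887889-1889565 (1677 bp) had the same 5 proteins at the cap, with SCC-2 at 483, SMC-4 at 257 and embryo KLE-2 at 261. At the other end, the site at chrX:17042532-17043513 (982 bp) had scores of 469 for DPY-26, 124 for CAPG-1, 539 for DPY-27 and 152 for MIX-1, with no DPY-28 peak. None of SCC-2, SMC-4, AMA-1, larval KLE-2 or the condensin II subunits had a peak there. Further marks were counted among SCC-2, SMC-4, a condensin II subunit, larval KLE-2 and AMA-1. The 5 named sites of highest score had all 5 proteins at the cap and were taken from tied sites by lowest start. Others, such as chrX:12889189-12891101, tied with them and were not picked. The named sites of highest score had 1 to 3 of the further marks, and those of lowest score had 0 or 1. The site at chrX:1378142-1380361, with the same 5 proteins at the cap, had only an SMC-4 peak of 107 in addition, and low-scoring sites at chrX:5809847-5811193 and chrX:4297010-4298119 had an SCC-2 peak of 149 and an AMA-1 peak of 769.

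The threshold of the choice can be seen in sites near it. The smallest overlap with a MIX-1 peak was 523 bp, at chrX:11672668-11675002. The nearest sites left out for lack of MIX-1 lay 44, 56 and 68 bp from a MIX-1 peak, the closest being chrX:12084632-12085744, with scores of 2927 for DPY-26, 173 for CAPG-1 and 126 for DPY-27. The MIX-1 sites nearest to a condensin II site were 254, 278 and 413 bp away. The sites left out by the smallest overlap with condensin II shared 1003, 1004 and 1013 bases with one.

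Of the lists that the choice of sites did not use, DPY-27 was the most frequent. This SMC subunit distinguishes condensin IDC from condensin I. It had a peak at 655 MIX-1 sites, or 94.9% (93.0 to 96.4%), against 91.5% of all X sites. Sites without MIX-1 had DPY-27 at 87.4% (84.8 to 89.8%) and condensin II sites at 94.2% (89.9 to 97.1%). The share at MIX-1 sites was above that at sites without MIX-1, and its interval overlapped that at condensin II sites. In narrow sites (up to 1392 bp) the shares with and without MIX-1 were 96.9% (93.4 to 98.9%) and 88.5% (84.5 to 91.7%). In sites of middle width they were 95.7% (92.47 to 97.8%) and 88.3% (83.2 to 92.26%). The intervals did not overlap in either class. In wide sites (over 2282 bp) the shares were 92.5% (88.4 to 95.5%) and 84.6% (78.5 to 89.5%), with overlapping intervals. The DPY-27 score was at the cap in 342 of the 655 (52.2%), in 12.9% of the DPY-27 peaks at sites without MIX-1 and in 91.1% of those at condensin II sites.

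**Figure D1:**
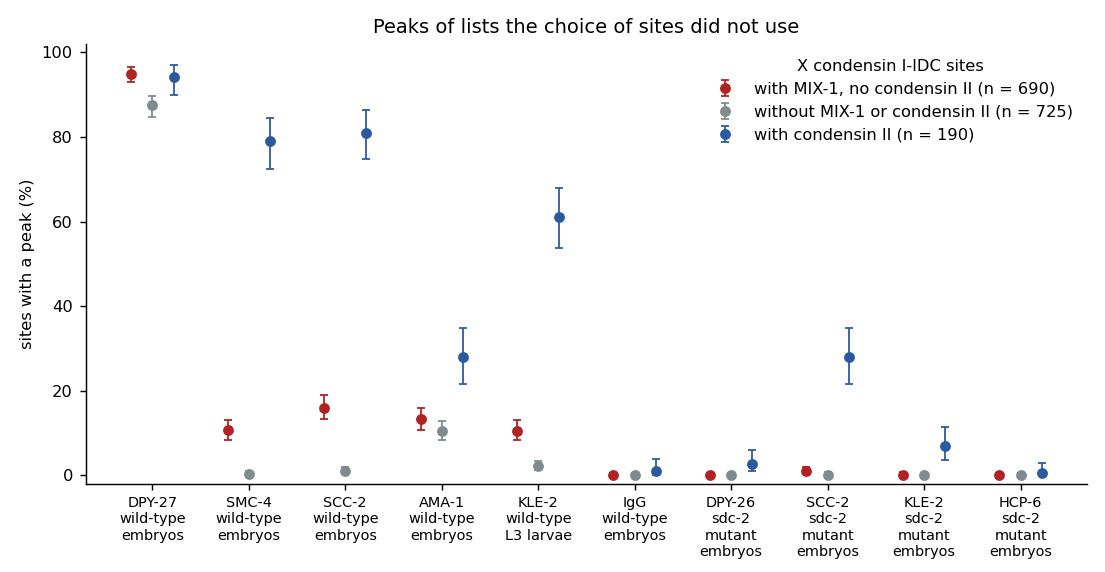
Percentage of X condensin I-IDC sites (y axis) with a peak in each list that the choice of sites did not use (x axis), for the 690 sites with MIX-1 and no condensin II, the 725 sites with neither and the 190 sites with condensin II. Points are shares and bars exact 95% intervals. For SCC-2 the red points lie at 15.9%, between 0.966% and 81.1%, while for DPY-27 all 3 kinds of site lie above 87%.

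SMC-4, which takes the place of DPY-27 in condensin I and condensin II, had peaks at 73 MIX-1 sites, or 10.6% (8.38 to 13.1%). Over all X sites the share was 14%, so the MIX-1 sites were not above the background of X sites as a whole. The share was 3.84% where a peak of any single condensin II subunit was enough to leave a site out. Width classes of 535 X sites each were used, narrow (up to 1392 bp), middle and wide. SMC-4 marked 2.59%, 10.5% and 17.1% of narrow, middle and wide MIX-1 sites. The MIX-1 sites differed from both other kinds of site. SMC-4 marked 2 of 725 sites without MIX-1, or 0.276% (0.0334 to 0.993%), and 150 of 190 condensin II sites, or 78.9% (72.5 to 84.5%). DPY-27 and SMC-4 were found together at 66 MIX-1 sites. SMC-4 marked 17.5% of MIX-1 sites with the DPY-27 score at the cap and 1.92% of those with it under the cap. Over all X sites these shares were 32.4% and 2.04%. The 35 MIX-1 sites with no DPY-27 peak had SMC-4 in 7 cases, or 20.0% (8.44 to 36.9%), against 10.1% (7.88 to 12.6%) of the 655 with DPY-27, and these intervals overlapped. Of the 35 sites, 10 also had no DPY-26 peak and 10 had an AMA-1 peak. Over all X sites 4.67% had no DPY-26 peak, and of the 137 X sites with no DPY-27 peak 24.1% had AMA-1.

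SCC-2, or PQN-85, a subunit of the complex that loads cohesin onto chromosomes, had peaks at 110 MIX-1 sites, or 15.9% (13.3 to 18.9%), against a background of 16.9% of all X sites. The share was 0.966% (0.389 to 1.98%) at sites without MIX-1, which is 7 of 725, and 81.1% (74.7 to 86.4%) at condensin II sites. At MIX-1 sites it was 10.4% where any single condensin II subunit left a site out. The peaks were also smaller than at condensin II sites. The median SCC-2 score was 287 at MIX-1 sites and 715 at condensin II sites, and no SCC-2 peak at a MIX-1 site was at the cap, the highest being 923.

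The difference in SCC-2 between sites with and without MIX-1 was also present among sites of like width. Narrow sites had SCC-2 at 4.66% with MIX-1 and 0.606% without. Middle sites had it at 18.7% and 0.469%, and wide sites at 22.1% and 2.20%. The DPY-27 score was divided only at its cap. The lower quartile of the score was 1753 at MIX-1 sites and 578 at sites without MIX-1, so these classes do not match the sites for DPY-27. With DPY-27 at the cap, SCC-2 marked 81 of 342 MIX-1 sites, or 23.7% (19.3 to 28.6%), and 3 of 82 sites without MIX-1, or 3.66% (0.761 to 10.3%). With DPY-27 under the cap it marked 7.35% (4.71 to 10.8%) and 0.725% (0.198 to 1.84%). The intervals of MIX-1 sites and sites without MIX-1 overlapped only for narrow sites, where the former ran from 2.15% and the latter up to 2.17%.

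RNA polymerase II, measured as its large subunit AMA-1, gave another pattern. AMA-1 had peaks at 91 MIX-1 sites, or 13.2% (10.8 to 15.9%), with 13.6% over all X sites. At sites without MIX-1 the share was 10.3% (8.22 to 12.8%), and these intervals overlapped. At condensin II sites it was 27.9% (21.6 to 34.8%). AMA-1 went with width. Among MIX-1 sites it marked 4.66% of narrow, 5.45% of middle and 28.3% of wide sites, and among sites without MIX-1 it marked 5.76%, 5.63% and 24.2%. The median width of MIX-1 sites was 3513 bp with AMA-1 and 1701 bp without. The widest site, at chrX:10390671-10404586 (13916 bp), had AMA-1 at a score of 1626 and CAPG-1 at 2030, but DPY-26 at 590, DPY-27 at 554 and MIX-1 at 490, all under the median of MIX-1 sites. The second widest, chrX:4609289-4620900 (11612 bp), had AMA-1 at 1102 and DPY-27 at 140. All of the 3 widest sites carried an AMA-1 peak.

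**Figure D2:**
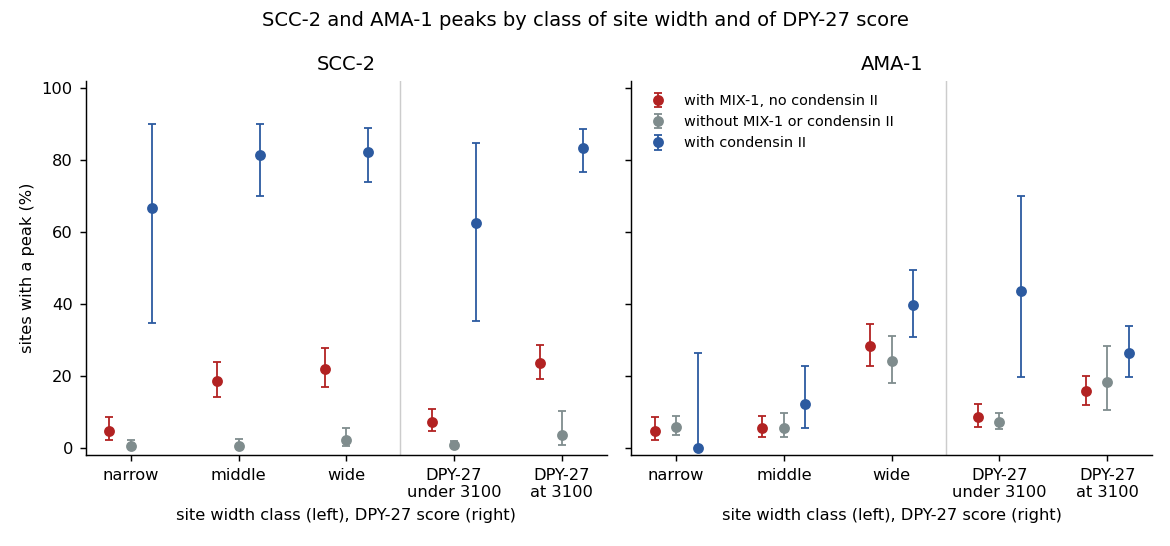
Percentage of X condensin I-IDC sites with an SCC-2 peak (left panel) or an AMA-1 peak (right panel), by class of site width and by DPY-27 score (x axis). Points are shares and bars exact 95% intervals. In the left panel the red points (MIX-1 sites) lie above the grey points (sites without MIX-1) in all 5 classes, while in the right panel red and grey intervals overlap in each class, for example 28.3% and 24.2% at wide sites.

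Peaks of SCC-2, SMC-4 and larval KLE-2 were centred on the MIX-1 sites. SCC-2 peaks covered the centre of 12.9% of MIX-1 sites, and 2.03% and 2.46% of the positions 2 kb to the left and right. SMC-4 covered 8.26% of centres and 1.74% and 1.88% at 2 kb, and larval KLE-2 8.26% of centres and 2.75% and 2.17%. HCP-6, whose list took part in the choice of sites, covered 10.1% of centres and 2.17% and 1.88%, given as a description. AMA-1 was flat, covering 8.26% of centres and 7.68% and 8.41% at 2 kb. MIX-1, whose list also took part in the choice, covered 93.5% of centres and 12.3% and 14.1% at 2 kb, given as a description. DPY-27 fell from 94.2% to 44.9% and 43.3%, and at sites without MIX-1 it covered 48.6% and 46.1% at 2 kb. The DPY-27 list was longer on the X, with 2175 peaks against 945 for MIX-1.

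**Figure D3:**
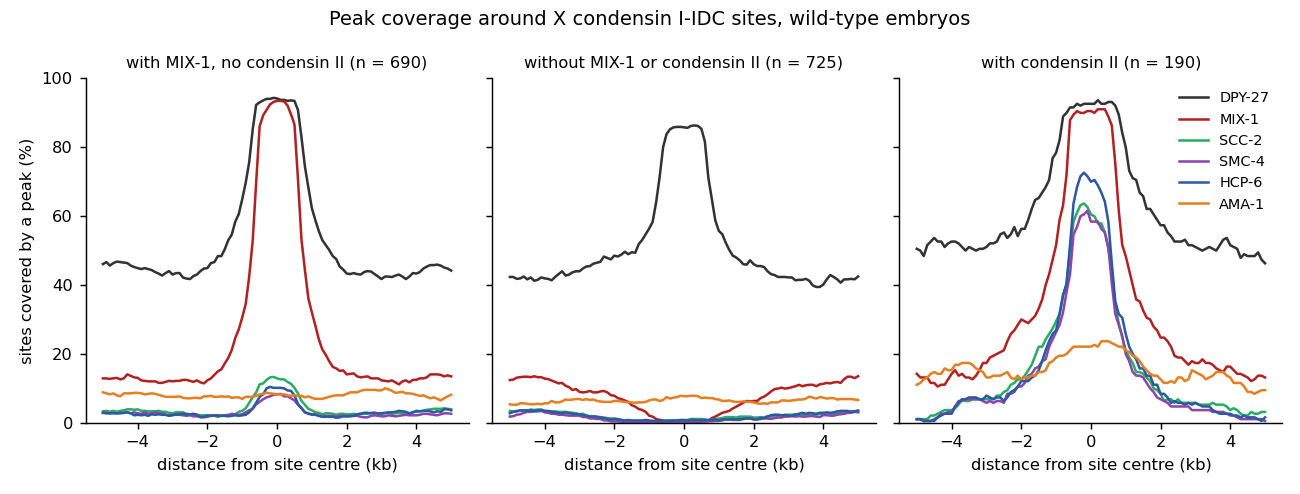
Percentage of sites (y axis) that a peak of each protein covered at each distance from the site centre in kb (x axis), in 3 panels for the 3 kinds of X condensin I-IDC site in wild-type embryos. Each line is 1 peak list. At MIX-1 sites SCC-2 reached 12.9% at the centre with AMA-1 flat at about 8%, while at condensin II sites SCC-2 reached 60.5%.

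Single condensin II subunits were still found at MIX-1 sites, since only stretches with 2 of them were left out. HCP-6, a HEAT-repeat subunit, had peaks at 90 MIX-1 sites, the kleisin KLE-2 at 42 and CAPG-2 at 11. Over all X sites the shares were 17.6%, 13.5% and 7.48%. A total of 143 MIX-1 sites (20.7%, 17.8 to 23.9%) had exactly 1 of the 3 and 547 had none, while 11 of 725 sites without MIX-1 (1.52%, 0.760 to 2.70%) had 1. Over all X sites 21.4% had at least 1. Since these lists chose the sites, their counts and scores here are set in part by the choice and are a description. The median HCP-6 score was 317 at MIX-1 sites and 730 at condensin II sites, and the median KLE-2 scores were 395 and 721.

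The single subunits are set here beside SMC-4 and SCC-2, again as a description, since the choice limited them to stretches of 1 subunit. Of the 73 MIX-1 sites with SMC-4, 52 (71.2%, 59.4 to 81.2%) had a condensin II subunit, against 91 of the 617 without SMC-4 (14.7%, 12.04 to 17.8%). Of the 110 with SCC-2, 53 (48.2%, 38.6 to 57.9%) had one, against 90 of 580 without (15.5%, 12.7 to 18.7%). SMC-4 was at 40 of the 110 sites with SCC-2 (36.4%, 27.4 to 46.1%) and at 33 of the 580 without (5.69%, 3.95 to 7.90%). Sites with these proteins were also wider and higher in score. The median width was 2209 bp with SCC-2 and 1736 bp without, and the median MIX-1 score lay at percentile 72.8 of X peaks with SCC-2 and 39.0 without.

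Within the MIX-1 sites, these shares increased with the MIX-1 score. The sites were divided by score into 4 groups of 172 or 173. In the lowest group (scores of 101 to 392) SCC-2 marked 4.62% (2.02 to 8.91%), in the next ones 5.81% and 13.95%, and in the highest (1405 to 3100) 39.3% (32.0 to 47.0%). SMC-4 marked 1.73%, 4.65%, 7.56% and 28.3% of the groups in the same order, and a condensin II subunit 5.78%, 9.30%, 22.7% and 45.1%. The lists of MIX-1 and of the condensin II subunits both took part in the choice of sites. The groups and the shares of a condensin II subunit are therefore a description. DPY-27 was nearly flat, at 93.1%, 97.1%, 94.8% and 94.8%. AMA-1 marked 14.5%, 7.56%, 15.7% and 15.0%, with overlapping intervals in the lowest and highest groups. The median width was 1446 bp in the lowest group and 2220 bp in the highest, and its part in these shares was not tested.

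**Figure D4:**
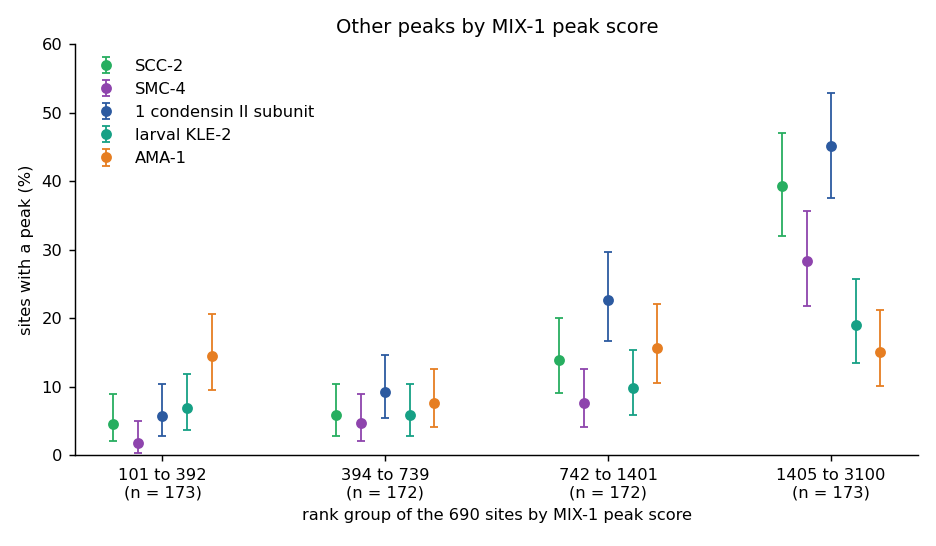
Percentage of MIX-1 sites with a peak of SCC-2, SMC-4, 1 condensin II subunit, larval KLE-2 or AMA-1 (y axis) in 4 groups of the 690 sites by MIX-1 peak score (x axis, with the scores and n of each group). Points are shares and bars exact 95% intervals. SCC-2 went from 4.62% in the lowest group to 39.3% in the highest, and AMA-1 from 14.5% to 15.0%. The lists of MIX-1 and of the condensin II subunits took part in the choice of sites.

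Most MIX-1 sites carried none of these further marks. Of the 690, 406 (58.8%) had no peak of SCC-2, SMC-4, a condensin II subunit, larval KLE-2 or AMA-1, against 64.5% of all X sites and 86.9% of sites without MIX-1. A condensin II site cannot be in this class, since its subunits are among the marks. A further 158 MIX-1 sites had 1 of the 5 marks, 67 had 2, 41 had 3, 16 had 4 and 2 had all 5. AMA-1 alone (46 sites), a condensin II subunit alone (44) and SCC-2 alone (35) were the most frequent. The sites with all 5 marks differed from each other. At chrX:14752898-14755210 (2313 bp) DPY-26, DPY-27 and MIX-1 were at the cap, while chrX:6735185-6746341 (11157 bp) had DPY-27 at 249 and MIX-1 at 380, with AMA-1 and larval KLE-2 at the cap.

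KLE-2 was also measured in L3 larvae, in other animals than those that chose the sites. Larval KLE-2 had peaks at 72 MIX-1 sites, or 10.4% (8.25 to 12.96%), against 12.6% of all X sites. The share was 4.73% with the higher-scoring 50% of every list and 6.76% where any single condensin II subunit left a site out. By width it was 6.74%, 9.34% and 14.6% of narrow, middle and wide MIX-1 sites. Sites without MIX-1 had 2.07% (1.16 to 3.39%) and condensin II sites 61.1% (53.7 to 68.0%). Of the 72, 12 had KLE-2 in embryos as well and 60 had it in larvae only, while 30 further sites had it in embryos only. At condensin II sites 105 of the 116 with larval KLE-2 had embryonic KLE-2. Embryonic KLE-2 was used in choosing both kinds of site, which limits it at MIX-1 sites and favours it at condensin II sites, so nothing about the stages is read from these counts. The median larval score was 545 at MIX-1 sites and 1472 at condensin II sites. The larval list was longer than the embryonic one, with 2424 peaks against 1474, and the effect of this on the larval-only count was not tested.

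The IgG control, an immunoprecipitation without a specific target, had no peak at a MIX-1 site (0 of 690, interval up to 0.533%). Over all X sites it had peaks at 0.125%, both at condensin II sites.

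In sdc-2 mutant embryos the MIX-1 sites were nearly empty of peaks. DPY-26 had none there (0 of 690, up to 0.533%), where 658 had one in wild-type embryos. Over all X sites 0.312% had a DPY-26 peak, all 5 of them condensin II sites. HCP-6 had none at MIX-1 sites either, with 0.0623% over all X sites. KLE-2 had 1, against 0.872% of all X sites, at chrX:992274-993856 (1583 bp). This site had KLE-2 at 1410 in the wild-type list and 142 in the mutant list, and SCC-2 at 731 and 217, scores that cannot be compared as amounts. It is left out where any single condensin II subunit is enough. SCC-2 had peaks at 6 MIX-1 sites (0.870%, 0.320 to 1.88%), against 3.74% of all X sites, and at 53 condensin II sites (27.9%).

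The mutant lists were short also on autosomes, which serve here as a comparison. Of the 110 MIX-1 sites with SCC-2 in wild-type embryos, 4 kept it (3.64%, 1.00 to 9.05%), against 52 of 154 condensin II sites (33.8%, 26.4 to 41.8%) and 218 of 870 autosomal SCC-2 peaks (25.1%, 22.2 to 28.1%). Shares are also given by wild-type score, since the wild-type SCC-2 peaks had a median score of 287 at MIX-1 sites and 326 on autosomes. These count peaks instead of sites, 112 at MIX-1 sites, 162 at condensin II sites and 870 on autosomes. With a wild-type score under 300, 1 of 66 SCC-2 peaks at MIX-1 sites was met in the mutant (1.52%, up to 8.16%), and 24 of 395 autosomal ones (6.08%, 3.93 to 8.91%). With scores from 300 to under 600 it was 2 of 38 (5.26%, 0.644 to 17.7%) and 43 of 244 (17.6%, 13.1 to 23.0%). At 600 and over it was 1 of 8 (12.5%, 0.316 to 52.7%) and 151 of 231 (65.4%, 58.8 to 71.5%). For X peaks at condensin II sites it was, in the same order, 3 of 39 (7.69%), 8 of 37 (21.6%) and 41 of 86 (47.7%, 36.8 to 58.7%). The share at MIX-1 sites was below both others in all 3 bands. Against autosomes the intervals overlapped in the lower 2 bands and did not overlap in the highest, which held 8 peaks at MIX-1 sites. Against condensin II sites they overlapped in all 3 bands. The part of the wild-type score in the difference was not tested.

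For the other proteins, 42 MIX-1 sites had wild-type KLE-2 and 1 kept it (2.38%, 0.0603 to 12.6%), with 12.8% (11.03 to 14.8%) of autosomal KLE-2 peaks. None of 90 sites kept HCP-6 (up to 4.02%), with 2.99% of autosomal peaks. None of 658 kept DPY-26 (up to 0.559%), with 17 of 44 autosomal DPY-26 peaks (38.6%, 24.4 to 54.5%). For DPY-26 the intervals did not overlap, for KLE-2 and HCP-6 they did. The mutant strain carries fewer X chromosomes per autosome than N2, and the absence of SDC-2 cannot be told apart from this lower X dose.

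**Figure D5:**
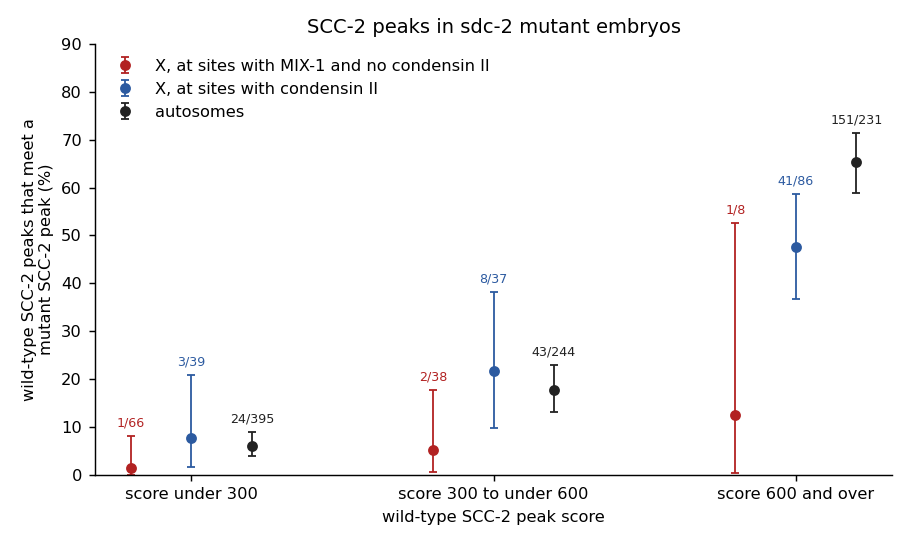
Percentage of wild-type SCC-2 peaks that met an SCC-2 peak in sdc-2 mutant embryos (y axis) by wild-type score (x axis), for peaks at MIX-1 sites, at condensin II sites and on autosomes. Points are shares, bars exact 95% intervals, and labels give peaks met over all peaks. Autosomal peaks went from 6.08% to 65.4% with score, and the peaks at MIX-1 sites were 66 under 300, 38 from 300 to under 600 and 8 above.

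The 6 MIX-1 sites with mutant SCC-2 had mutant scores of 147 to 259. They comprised 3 with DPY-26, DPY-27, DPY-28 and MIX-1 at the cap and no AMA-1 peak, and 3 of 4202 to 11157 bp with AMA-1 and larval KLE-2 peaks. An example of the latter is chrX:4140614-4148155 (7542 bp), where SCC-2 scored 509 in wild-type embryos and 147 in the mutant and AMA-1 and larval KLE-2 were at the cap. At 2 of the 6 the wild-type list had no SCC-2 peak, as at chrX:1319105-1320806 with a mutant score of 184.

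The MIX-1 sites were spread over the whole X. Each of 17 full 1-Mb bins held 29 to 50 of them (median 38), which was 34.8 to 50.0% of the condensin I-IDC sites in the bin. The median distance from a MIX-1 site to the next was 6359 bp. The nearest condensin II site lay at a median of 26.7 kb, with a range of 254 bp to 379 kb. For sites without MIX-1 this median was 28002 bp. Among sites without condensin II the share that had MIX-1 was similar at every distance from a condensin II site, from 43.6% at 25 to 50 kb to 52.2% within 5 kb. SCC-2 marked 23.8% (15.2 to 34.3%) of the 84 MIX-1 sites within 5 kb of a condensin II site and 13.6 to 17.4% in the bins farther away, with overlapping intervals. AMA-1 marked 21 of the 84 (interval 16.2 to 35.6%) within 5 kb and 5.80% (1.60 to 14.2%) beyond 100 kb. Sites without MIX-1 had AMA-1 at 16.9% (9.31 to 27.1%) within 5 kb and likewise 5.80% (1.60 to 14.2%) beyond 100 kb. The share was thus lower far from condensin II in both kinds of site, but at sites without MIX-1 the intervals overlapped. The part of site width in these shares was not tested. Of the 202 X stretches defined from the condensin II subunits, 114 had a MIX-1 site within 10 kb.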

How the data were processed

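ChIP-seq peak lists of 17 protein and condition groups (57 samples) were analysed. Per the study's methods, the authors mapped reads with Bowtie 0.12.7 to build WS220, pooled replicates, called peaks with MACS against input chromatin and kept peaks found in most replicates. For the mutant the authors handled X and autosomes separately. The deposited score is the MACS value, from 100 to a cap of 3100. The lists hold no read counts, so the depth behind a peak is unknown. The CAPG-1 and MIX-1 lists name chromosomes differently from the others. Among their peaks within 1 kb of a DPY-26 peak centre, the median signed offset between centres was 2.5 bp for CAPG-1 and 6.25 bp for MIX-1. The quartiles were -163.5 and 187.5 bp for CAPG-1 and -145 and 190 bp for MIX-1.

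Overlaps of at least 1 bp were computed with numpy 2.4.6, pandas 2.3.3 and scipy 1.17.1 under Python 3.11.15 and tested on simulated intervals. Starts are 1-based. The sites, lists and alternatives were chosen with earlier results of these data known. Named sites were those with the highest and lowest mean score percentile over DPY-26, DPY-28, CAPG-1, DPY-27 and MIX-1, the widest, those nearest each threshold, those with 5 or fewer peaks of a mutant list and those with every mark. Ties in percentile went to the lowest start. The 6 sites with mutant SCC-2 and the bands by MIX-1 and SCC-2 score were added after values were seen. Genes, sequence and FPKM tables of RNA were not used here.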

Additional observations from a re-analysis of the deposited data

How the results depend on the processing

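The choices varied were the subunits a site needs, the score, the overlap, merging, a minimum width of 500 bp and what counts as condensin II, in 10 settings for 12 results. Of 118 values, 106 stayed within the main interval (for the number of sites, within 1.5 times it). Many of these had little or no room to move. The narrowest MIX-1 site was 716 bp wide, so the minimum width changed no value. The IgG, mutant HCP-6 and mutant DPY-26 lists held only 2, 1 and 8 peaks on the X, so their shares stayed near 0%. With only the higher-scoring 50% of every list the MIX-1 sites numbered 444, their median width was 1944 bp and larval KLE-2 marked 4.73%. The median width was 1427 bp where all 3 subunits had to meet, 1452 bp with DPY-26 and CAPG-1 only and 1429 bp with DPY-28 and CAPG-1 only. With overlap at the centre base AMA-1 marked 9.10%. Where any peak of KLE-2, HCP-6 or CAPG-2 counted as condensin II, SMC-4 marked 3.84%, SCC-2 10.4%, AMA-1 10.6%, larval KLE-2 6.76% and mutant KLE-2 0% of MIX-1 sites, since sites with 1 such subunit leave the set. In each of these settings and the main one, the shares of SCC-2, SMC-4 and larval KLE-2 lay between those of sites without MIX-1 and condensin II sites. No paired analysis was possible because each list pools its replicates, and for the same reason no replicate could be left out. The depth of the lists is unknown, so a site without a peak may hold the protein below the caller's threshold.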
